A study of Mus musculus with 30 samples.

Results

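DNA replication genes were followed in mHypoA-2/12 cells, an immortalised clonal line from the adult mouse hypothalamus, after exposure to cannabidiol (CBD). The 47 genes were taken by symbol from the 56941 genes of the count tables and sorted into 7 roles: licensing and helicase (16 genes), clamp and clamp loader (6), polymerases and primase (9), strand processing and single-strand binding (5), nucleotide supply (5), chromatin copying (4) and cyclin E (2). The cells received 0.325, 0.75, 1.5 or 3 µM CBD, or the vehicle alone, for 6 h or 24 h, which gave 10 groups of 3 libraries. All groups carried 0.1% DMSO. The authors' methods name serum for the culture before treatment and not for the treatment medium. No batch is labelled, and nothing says whether the 3 libraries of a group came from separate cultures, so the p-values measure the spread between these libraries, which may be technical.

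A cell copies its DNA once per division. In G1, the origin recognition complex, Cdc6 and Cdt1 load the Mcm2 to Mcm7 ring on DNA, and in S phase Cdc45 and the GINS complex join the ring to form the moving helicase. Polymerase alpha with primase starts each strand, the clamp Pcna holds the polymerases delta and epsilon on the template, and Lig1 seals the joined fragments. Many of these genes are transcribed together at the G1/S border under E2F factors, and their transcripts are commonly read as signs of cells that cycle.

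The deposited tables hold reads at the 3′ ends of transcripts, so a letter-by-letter view of the genes comes from their promoters. RefSeq (assembly GRCm38.p6) gave a window of 300 bases, 250 before and 50 after the start, for 39 of the 47 genes, with 47 start sites in all. E2F words were searched as TTTCCCGC, TTTCGCGC, TTTGCCGC and TTTGGCGC on both strands. They stood in the windows of 16 of the 39 genes (41.0%), and in those of 2.61% of all 27025 genes of the RefSeq table. The shorter CCAAT box, searched as CCAAT on both strands, stood at 57.4% of the genes' start sites and 37.4% of all 32851 start sites. Of the 7 genes that differed between doses at 24 h (described later in the text), Mcm7, Pola1 and Lig1 had an E2F word, Chaf1a and Cdc45 had none in their windows, and Prim2 and Gins1 had no entry. The windows printed are those of the 4 genes with an E2F word and the smallest p in that comparison. They are these 3, whose levels differed between doses, and Mcm6, which missed the threshold. Mcm6 held the most words of the 39 genes, 3 in number. Capitals mark the words, read 5′ to 3′ on the strand of the gene. The window of Mcm7, which codes for a subunit of the helicase ring, is chr5:138171834-138172133 (minus strand) and holds 2 words. Another listed start of Mcm7, with the window chr5:138171217-138171516, held no word and is not printed.
Mcm7: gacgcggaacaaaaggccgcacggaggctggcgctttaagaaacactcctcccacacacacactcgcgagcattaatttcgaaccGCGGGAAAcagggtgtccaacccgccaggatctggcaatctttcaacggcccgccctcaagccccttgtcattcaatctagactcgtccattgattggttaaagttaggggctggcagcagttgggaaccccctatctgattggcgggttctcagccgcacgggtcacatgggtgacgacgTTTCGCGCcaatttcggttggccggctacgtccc
The window of Pola1, the catalytic subunit of polymerase alpha, is chrX:93632106-93632405 (minus strand) and holds 1 word.
Pola1: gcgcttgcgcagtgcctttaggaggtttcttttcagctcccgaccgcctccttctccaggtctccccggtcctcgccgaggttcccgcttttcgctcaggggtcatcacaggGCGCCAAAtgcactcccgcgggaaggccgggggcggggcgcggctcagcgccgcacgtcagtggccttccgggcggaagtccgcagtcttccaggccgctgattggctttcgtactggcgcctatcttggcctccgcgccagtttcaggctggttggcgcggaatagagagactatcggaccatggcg
The window of Lig1, the ligase that joins Okazaki fragments, is chr7:13278576-13278875 (plus strand), around 1 of 3 listed starts, and it alone of the 3 held a word.
Lig1: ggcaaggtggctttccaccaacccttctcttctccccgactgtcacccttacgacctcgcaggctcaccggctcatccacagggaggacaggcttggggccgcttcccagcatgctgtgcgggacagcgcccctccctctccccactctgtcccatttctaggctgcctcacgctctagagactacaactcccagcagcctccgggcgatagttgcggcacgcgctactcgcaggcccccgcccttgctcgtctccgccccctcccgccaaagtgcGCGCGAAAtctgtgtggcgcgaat
The window of Mcm6, another subunit of the ring, is chr1:128359656-128359955 (minus strand), and the first 2 of its 3 words overlap on opposite strands.
Mcm6: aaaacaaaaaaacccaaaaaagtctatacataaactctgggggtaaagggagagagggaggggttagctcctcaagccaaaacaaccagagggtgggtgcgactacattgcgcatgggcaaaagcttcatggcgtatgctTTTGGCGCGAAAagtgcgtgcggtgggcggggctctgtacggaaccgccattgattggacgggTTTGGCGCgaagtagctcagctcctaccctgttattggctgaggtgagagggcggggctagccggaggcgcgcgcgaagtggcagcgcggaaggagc
A word in a window is a match of letters and no measurement of binding. In the dose comparison at 24 h, Mcm7, Pola1 and Lig1 were higher at 3 µM, while Mcm6 was not called, with a log2 fold change of −0.21 (FDR = 0.266).

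The library of a transcript holds 1 fragment at its 3′ end, so levels are given as CPM (read counts scaled to a common library size, with TMM factors) and not divided by gene length. Together the 47 genes took between 0.462% and 0.550% of the reads on genes. Their summed level was 4963 ± 225 CPM (SD, n = 30). Lig1 was the highest, at 843 ± 151 CPM, followed by Mcm7 at 403 ± 85.4 CPM and Mcm3 at 331 ± 30.8 CPM. Mcm7 and Mcm3 had ranges over libraries that overlapped, from 269.8 to 565 CPM and from 259 to 397 CPM. At the low end, Rfc4 stood at 1.91 ± 1.43 CPM, Rpa3 at 2.78 ± 1.57 CPM, Pole2 at 7.66 ± 3.16 CPM and Gins2 at 7.99 ± 2.72 CPM. Fen1, the flap endonuclease of Okazaki fragments, was all but unread, with 5 reads over all 30 libraries and no more than 2 in any library. Of the last 500 exonic bases of Fen1, 88.6% are shared with Gm10143 on the opposite strand in the GENCODE M21 annotation of GRCm38, and the part of this overlap in the low count was not tested.

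After the filter on low counts, 46 of the 47 genes were tested at 24 h and between times, and 45 at 6 h. Fen1 did not pass in any fit, and Rfc4 did not pass at 6 h. The reads on genes ranged from 1839621 to 4420675 per library (median 2641725), and the share of uniquely mapped reads outside genes ranged from 17.7% to 22.2%. Of the neuronal markers, 6 of 14 had a median over 10 CPM (among them Tubb3, at 50.6 CPM) and Rbfox3 and Snap25 had medians of 0.132 and 0 CPM. Of 9 mesenchymal markers, 8 had a median over 10 CPM, with Vim at 2186 CPM. Of 7 glial markers, Aqp4, Olig2 and Sox10 had no read in any library, and 1, S100b, had a median over 1 CPM. It was at a median of 4.34 CPM, with reads in 29 of the 30 libraries. In a bulk sample, fewer cells in S phase and less replication RNA per cell cannot be told apart.

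At 24 h, the comparison of 3 µM with the mean of the 3 lower doses asks how the highest dose differs from the rest of the CBD range. Among the 46 genes tested, 4 were higher and 3 lower at 3 µM (FDR below 0.1, edgeR quasi-likelihood test), 15.2% of them, where 10.5% of all 12118 genes tested were called (6.36% higher and 4.16% lower). DESeq2 also called 7, beside 10.6% of all genes. Chaf1a, Mcm7, Pola1 and Lig1 rose by 1.31-fold to 1.58-fold, and Cdc45, Prim2 and Gins1 fell to between 0.48 and 0.70 of the lower doses. For this comparison, rose and fell mean higher and lower at 3 µM than at the lower doses, and do not say which side changed. No gene of the 46 was called at 3 µM against the 24 h vehicle, where 0.00825% of all genes were called. Called genes of the same complex differed in direction: Mcm7 of the Mcm ring rose, while its helicase partners Cdc45 and Gins1 fell. In the polymerase alpha to primase complex, Pola1 rose and Prim2 fell. The other tested genes of these complexes were not called, so these are directions of single genes and not of the complexes. The libraries of 3 µM and of the lower doses did not overlap for 4 of the 46 genes (Pola1, Cdc45, Prim2 and Gins1), 8.70% beside 4.6% of all genes. The median log2 fold change was 0.01 over the 46 genes and 0.01 over all genes.

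**Figure D1:**
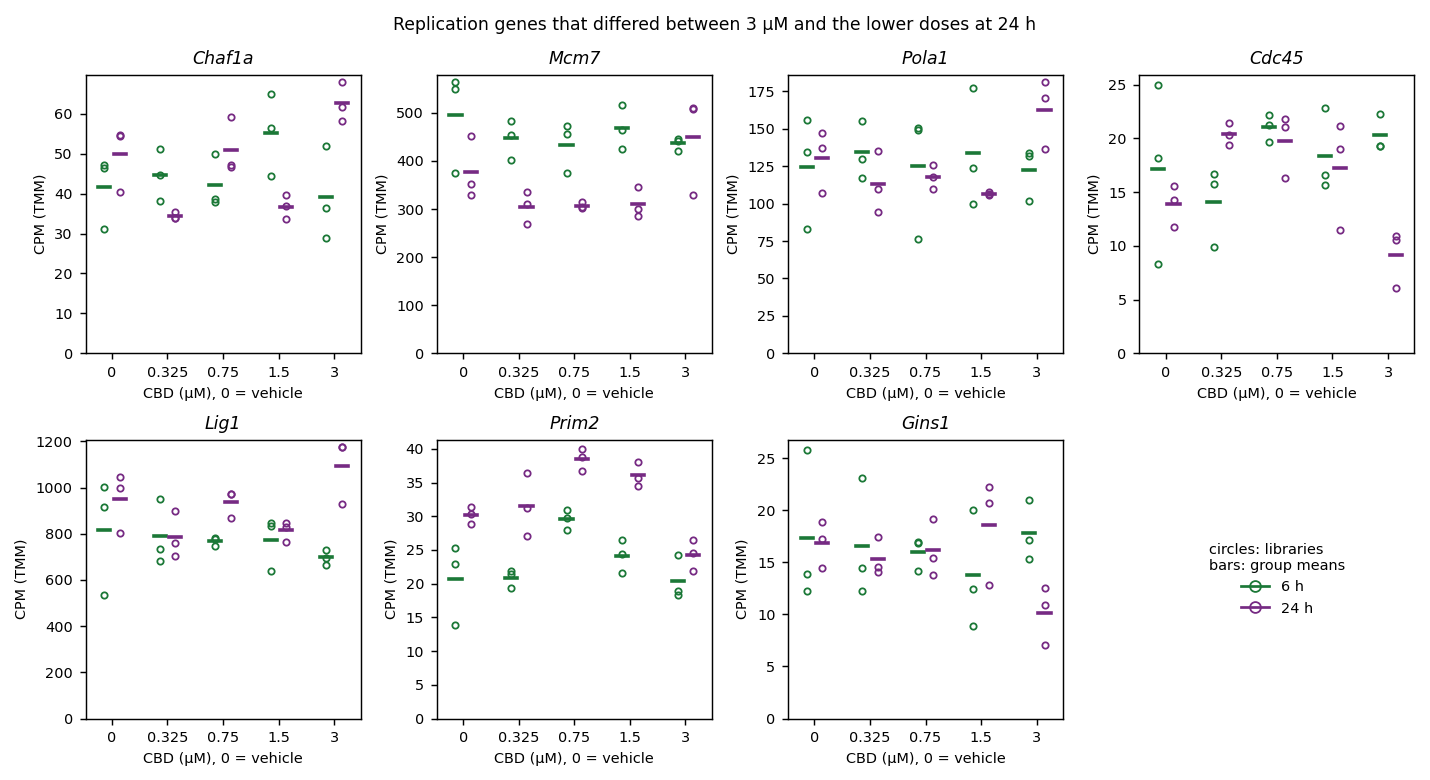
Level (CPM, linear axis from 0) of the 7 genes that differed between 3 µM and the lower doses at 24 h, against the CBD dose in µM (0 is the vehicle). Circles are libraries and bars group means, green for 6 h and purple for 24 h. The 3 µM libraries of Cdc45 at 24 h lie between 6.06 and 10.9 CPM, under all 9 libraries of the lower doses.

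Among the licensing and helicase genes, 1 of 16 rose and 2 fell, where 6.36% of all genes were called higher and 4.16% lower. The counts of the other roles at 24 h stand beside the same shares. Mcm7 (chromosome 5, 138164583 to 138172422, GRCm38) was at 510, 329 and 508 CPM in the 3 libraries of 3 µM. In the 9 libraries of the lower doses its lowest, median and highest levels were 269.8, 305 and 346 CPM. The vehicle libraries were at 329.6, 451 and 352 CPM. A pair of the 3 µM libraries thus stood over every library of the lower doses, while the third lay among them. The log2 fold change was 0.57 (SE 0.12, FDR = 0.00672). Its last 500 exonic bases overlap Cops6 on the opposite strand over 12.8% of their length. Whether reads were counted by strand is not given in the sources used here. Cops6 itself had a log2 fold change of −0.12 (FDR = 0.555).

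Cdc45 (chromosome 16, 18780447 to 18811987), which joins the ring when the helicase is switched on, was at 6.06, 10.9 and 10.5 CPM at 3 µM. The lower doses ran from 11.5 through a median of 20.3 to 21.8 CPM, and the vehicle libraries were at 15.6, 14.3 and 11.8 CPM. The groups of 3 µM and of the lower doses did not overlap, though the gap between the nearest libraries was small. Cdc45 had the largest change of the 46 genes by size, with a log2 fold change of −1.05 (SE 0.24, FDR = 0.0124). Gins1 (chromosome 2, 150905400 to 150931280), a subunit of the GINS complex, was at 12.5, 10.9 and 7.01 CPM at 3 µM. Its lower doses ran from 12.8 through 15.4 to 22.2 CPM, again without overlap. Its log2 fold change was −0.69 (SE 0.24, FDR = 0.0758). These are low levels, with 15 to 90 reads of Cdc45 and 16 to 93 reads of Gins1 per library. The other GINS genes were not called: Gins2 had a log2 fold change of −0.57 (FDR = 0.330) and Gins3 and Gins4 were near 0, at 0.01 and −0.01. The 10 other licensing genes outside GINS, from Mcm2 to Orc6, also missed the threshold, with log2 fold changes between −0.23 (Cdc6) and 0.24 (Mcm10).

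Of the 9 polymerase and primase genes, 1 rose and 1 fell. Pola1 (chromosome X, 93304767 to 93632155) was at 171, 137 and 181 CPM at 3 µM. The lower doses ran from 94.4 through 109 to 135 CPM, just under the lowest 3 µM library. The vehicle libraries, at 107, 147 and 137 CPM, lay between and overlapped both. The log2 fold change was 0.55 (SE 0.12, FDR = 0.00721). Prim2 (chromosome 1, 33453810 to 33669795), the large subunit of primase, was at 21.8, 26.4 and 24.5 CPM at 3 µM. The lower doses ran from 27.1 through 36.4 to 40.03 CPM, and the vehicle was at 31.4, 28.8 and 30.3 CPM. All 3 µM libraries of Prim2 were under all libraries of the other 24 h groups. The log2 fold change against the lower doses was −0.52 (SE 0.15, FDR = 0.0404). Pola2, the second subunit of polymerase alpha, and Prim1, the catalytic primase subunit, had log2 fold changes of −0.08 (FDR = 0.755) and 0.17 (FDR = 0.579).

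In strand processing and single-strand binding, 1 of 4 tested genes rose. Lig1 (chromosome 7, 13277283 to 13311433) was at 1174, 927 and 1174 CPM at 3 µM. The lower doses ran from 703 through 847 to 971 CPM and the vehicle was at 801, 999.9 and 1047 CPM. A pair of 3 µM libraries exceeded all others at 24 h, and 1 fell within the range of the lower doses. The log2 fold change was 0.39 (SE 0.10, FDR = 0.0221). Rpa1, Rpa2 and Rpa3, which coat single strands, were not called, and Rpa3 was too low to bound well, with a 95% interval from −1.95 to 0.63 on the log2 scale.

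In chromatin copying, 1 of 4 genes rose. Chaf1a (chromosome 17, 56040439 to 56072289), the large subunit of the CAF-1 complex that sets histones on new DNA, was at 67.9, 58.3 and 61.8 CPM at 3 µM. The lower doses ran from 33.6 through 36.8 to 59.3 CPM, and the vehicle was at 40.5, 54.7 and 54.5 CPM. The highest library of the lower doses, at 0.75 µM, reached into the 3 µM range. The log2 fold change was 0.66 (SE 0.13), with the smallest FDR of the 46 genes (0.00522). Of the last 500 exonic bases of Chaf1a, 88.6% overlap Ubxn6 on the opposite strand. Ubxn6 was at a median of 1.79 CPM and had a log2 fold change of −0.40 (FDR = 0.791). Chaf1b, Uhrf1 and Dnmt1 had log2 fold changes of 0.02, 0.17 and −0.02 (FDR of 0.938, 0.551 and 0.925).

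No gene of the other 3 roles was called. For the clamp and its loader, Rfc5 had the smallest p of its role and was at 120, 129.7 and 126 CPM at 3 µM. Its lower doses ran from 81.8 through 109 to 137 CPM and thus spanned the 3 µM libraries, with a log2 fold change of 0.24 (SE 0.12, FDR = 0.227). Of the last 500 exonic bases of Rfc5, 99.8% overlap Wsb2 on the opposite strand. Wsb2 itself had a log2 fold change of 0.29 (FDR = 0.336). Pcna, the clamp itself, had a log2 fold change of 0.00, with a 95% interval from −0.22 to 0.22. For nucleotide supply, Dut, which clears dUTP, was at 90.6, 74.7 and 70.6 CPM against 77.1, 92.5 and 113 CPM as the lowest, median and highest of the lower doses (log2 fold change −0.23, SE 0.12, FDR = 0.262). Tyms and Tk1, which make thymidine nucleotides, had log2 fold changes of 0.03 and 0.04. For cyclin E, the partner of Cdk2 at S phase entry, Ccne1 was at 20.6, 27.7 and 27.6 CPM and overlapped the lower doses, at 25.8, 28.8 and 39.9 CPM (log2 fold change −0.21, SE 0.18, FDR = 0.513). For 41 of the 46 genes the 95% interval lay within a change of 2-fold in either direction, and for 32 within 1.5-fold.

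**Figure D2:**
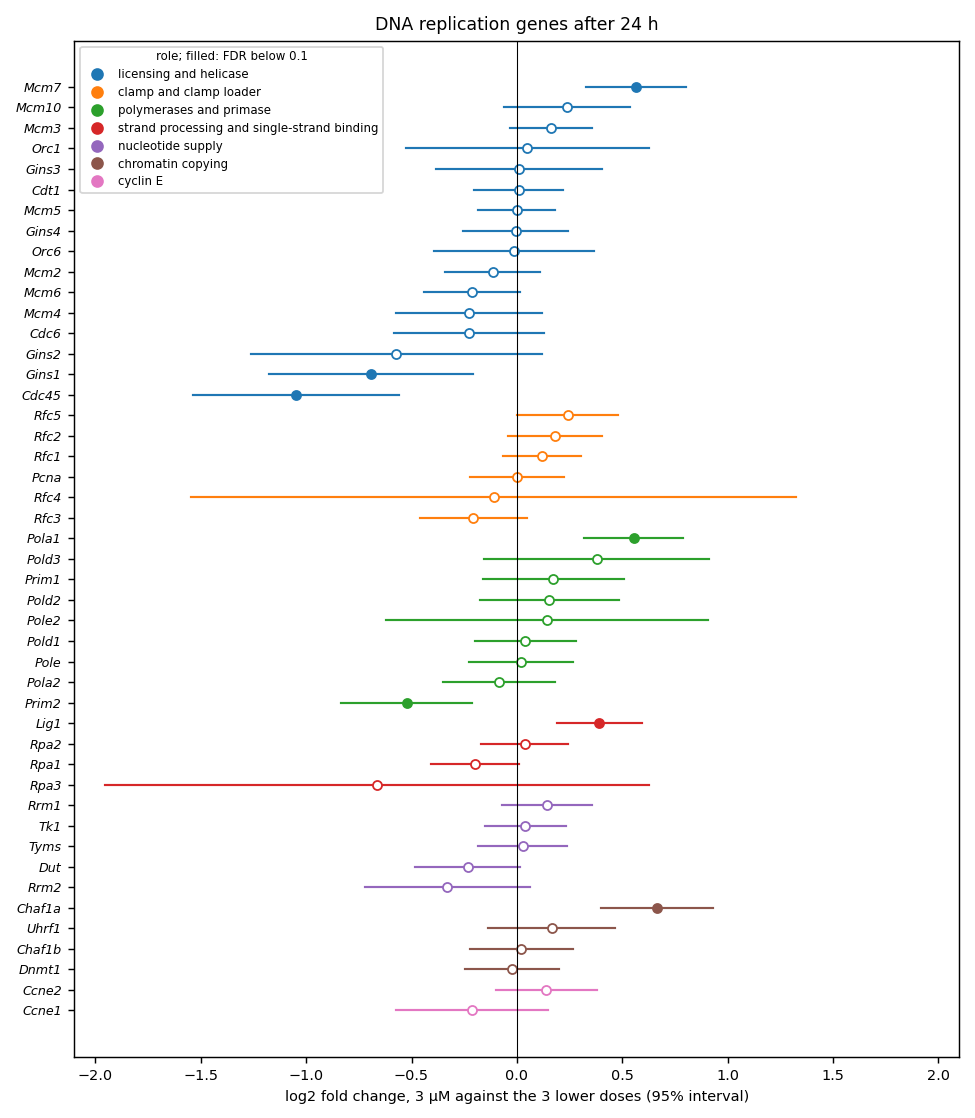
Log2 fold change of 3 µM against the mean of the 3 lower doses at 24 h for the 46 genes tested, grouped by role (colour). Points are estimates, lines 95% intervals, and filled points have an FDR below 0.1. The 4 filled points right of 0 and 3 left of it are spread over 4 roles, and the widest intervals belong to Rfc4 and Rpa3.

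The 7 calls rested in part on the 3 libraries of 3 µM. Without replicate 1 of 3 µM at 24 h, 2 genes were called (Chaf1a and Pola1), and without replicate 3, 4 genes (Chaf1a, Mcm7, Pola1 and Cdc45). Each of the other 13 removals left 6 or 7. The share of uniquely mapped reads outside genes moved with the same groups: it was 21.4% ± 0.487 (SD, n = 3) at 3 µM, 21.4% ± 0.714 (n = 3) in the vehicle and 19.5% ± 0.464 (n = 9) at the lower doses. With that share added as a covariate, 0 of the 46 genes were called at 24 h (0.248% of all genes), though all 7 kept their sign, with log2 fold changes between 0.26 and 0.72 for the 4 higher genes and between −0.76 and −0.25 for the 3 lower ones.

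At 6 h, where the share did not follow the dose in this way (group means from 19.4% to 20.2%, libraries from 17.7% to 21.4%), the slope of each gene on the share was fitted with the group means held. This comparison was chosen after the values were seen, and no count with a library left out is given for it. Among the vehicle libraries at 6 h, 1 had a share of 17.9% and 3574833 reads on genes. The others had 20.8% and 21.4%, with 1919498 and 1839621 reads, so share and depth moved together in that group. Of 45 genes, 15 had a slope at an FDR below 0.1, 7 upward and 8 downward, which is 33.3% beside 17.4% of all 12012 genes. They included 6 of the 7 genes called at 24 h. Per percentage point of reads outside genes, Pola1 rose by 0.27 (SE 0.05, FDR = 0.000362), Lig1 by 0.19 (SE 0.04, FDR = 0.000726), Mcm7 by 0.12 (FDR = 0.0217) and Chaf1a by 0.18 (FDR = 0.0446) on the log2 scale. Gins1 had a slope of −0.31 (FDR = 0.00967) and Cdc45 of −0.23 (FDR = 0.0693), and Prim2 one of −0.12 (FDR = 0.301). All 7 slopes at 6 h had the sign of the difference of 3 µM from the lower doses at 24 h, by which these genes were picked. At 24 h, with groups held, 0 genes had a slope past the threshold (0% of all genes), with 2 of 46 at an unadjusted p below 0.05. There the slope of Mcm7 had the opposite sign (−0.08, SE 0.10, FDR = 0.992), while the rest of these 7 genes kept theirs. The part of this share in the dose difference was not tested beyond these fits, and at 24 h it cannot be told apart from the groups of 3 µM and lower doses, whose shares did not overlap.

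**Figure D3:**
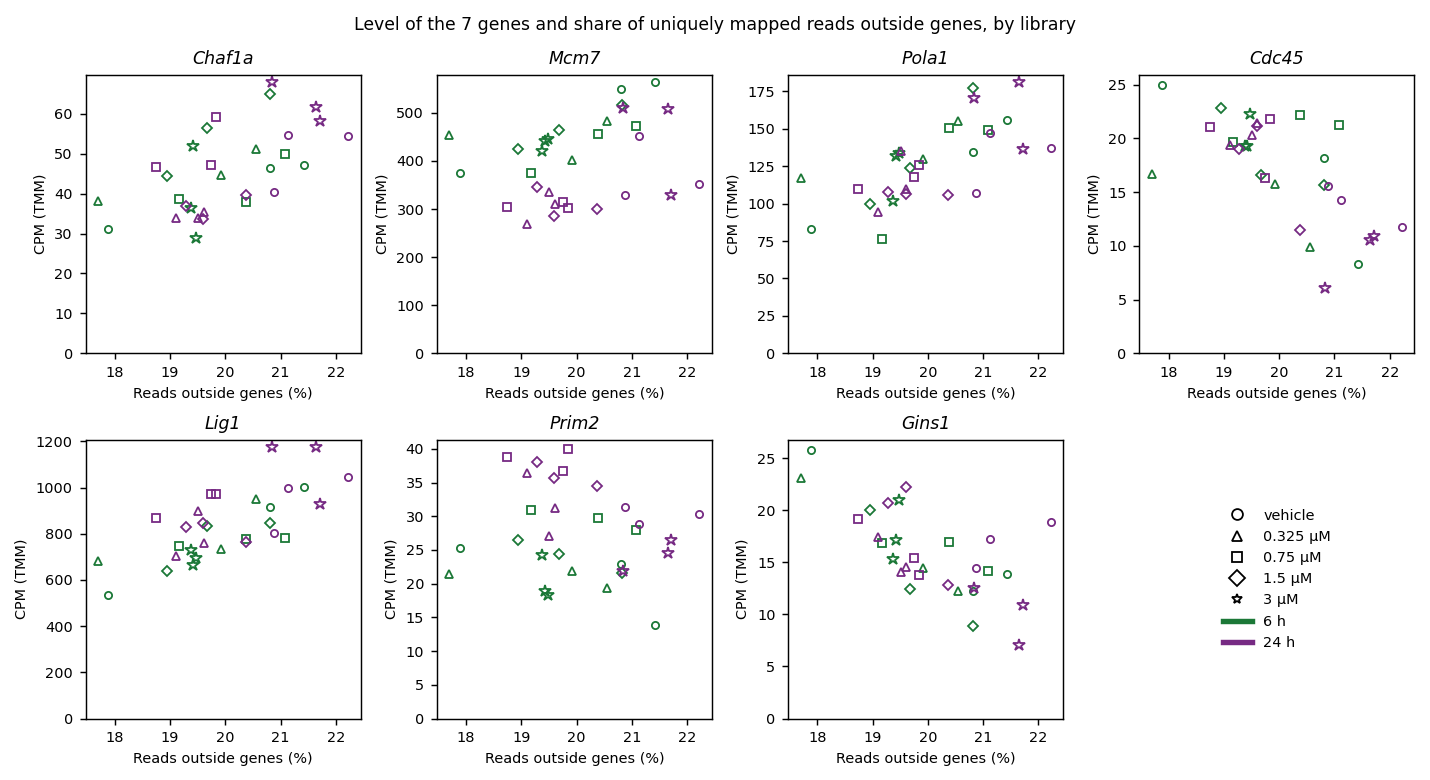
Level (CPM, linear axis from 0) of the 7 genes against the share of uniquely mapped reads outside genes (%), 1 point per library. The marker gives the dose and the colour the time. The 3 libraries of 3 µM at 24 h (purple stars) lie between 20.8% and 21.7%, right of all 24 h libraries of the lower doses (18.7% to 20.4%).

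Against the vehicle at 24 h, 0 of the 46 genes were called at 3 µM (0.00825% of all genes), with 4 at an unadjusted p below 0.05 in edgeR, and 0 in DESeq2 (0.107% of all genes). No share of all genes is given at this unadjusted p, here or in later counts, so these counts are not read as an excess. The smallest p was that of Gins1, with a log2 fold change of −0.71 (SE 0.28, FDR = 0.511). The next were Pola1 (0.33, FDR = 0.511), Chaf1a (0.34, FDR = 0.526) and Cdc45 (−0.60, FDR = 0.527). All 7 genes that differed from the lower doses had the same sign against the vehicle. Both comparisons use the same 3 libraries of 3 µM, and the 7 genes were picked by the first, so the shared sign is no separate evidence. The libraries of 3 µM and vehicle did not overlap for 7 of the 46 genes (15.2%, beside 10.3% of all genes): Chaf1a, Rfc1 and Rfc5 were higher and Cdc45, Prim2, Gins1 and Orc6 lower. The intervals were wider than against the lower doses, since 3 libraries stood on each side. They lay within 2-fold for 39 of 46 genes and within 1.5-fold for 29.

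The lower doses together did not separate from the vehicle at 24 h either, with 0 of 46 genes called (0.248% of all genes), 4 at an unadjusted p below 0.05, and 0 in DESeq2 (0.685% of all genes). Mcm7 had the smallest p, at −0.31 on the log2 scale (SE 0.12, FDR = 0.366), and Chaf1a was at −0.32 (SE 0.13, FDR = 0.407). For these 2 genes the vehicle thus lay between the lower doses and 3 µM. Taken dose by dose, 0 genes were called at 0.325, 0.75 or 1.5 µM (0.066%, 0.0825% and 0.0413% of all genes), with 5, 2 and 1 at an unadjusted p below 0.05. The smallest p at each dose belonged to Chaf1a at 0.325 µM (−0.54, SE 0.16, FDR = 0.351), Chaf1b at 0.75 µM (0.31, SE 0.14, FDR = 0.626) and Chaf1a at 1.5 µM (−0.45, SE 0.17, FDR = 0.560). These comparisons and the former share the 3 vehicle libraries. The summed level of the 47 genes was 5001 ± 247 CPM in the vehicle, 4899 ± 148 CPM (n = 9) at the lower doses and 5324 ± 353 CPM at 3 µM, with 1 of the 3 µM libraries within the range of the others. A sum weighs the most abundant genes most. The role of Lig1, strand processing and single-strand binding, summed to 1147 ± 107 CPM at the lower doses and 1374 ± 148 CPM at 3 µM. Nucleotide supply was at 571 ± 18.5 and 564 ± 19.8 CPM, and every other role had a higher mean at 3 µM than at the lower doses.

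**Figure D4:**
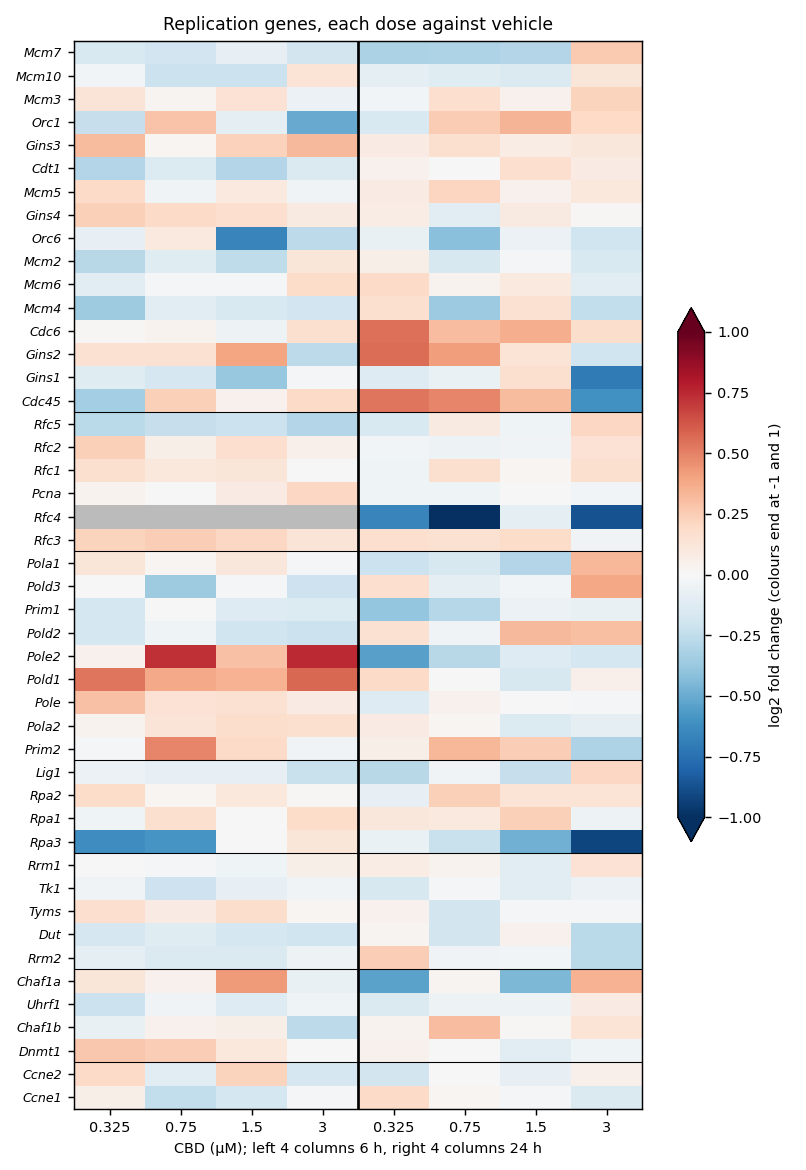
Log2 fold change of each CBD dose against the vehicle of the same time for 46 genes, in the order of roles (lines part the roles), with 6 h in the left 4 columns and 24 h in the right 4. Red is higher and blue lower, colours end at −1 and 1, and grey is not tested (Rfc4 at 6 h). None of these 8 columns holds a gene with an FDR below 0.1.

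At 6 h, none of the dose comparisons called a replication gene. For 3 µM against the lower doses, 0 of 45 genes were called (0% of all 12012 genes) with 2 at an unadjusted p below 0.05. These were Mcm2, a subunit of the helicase ring (0.33, SE 0.15, FDR = 0.905), and the cyclin gene Ccne2 (−0.27, SE 0.12, FDR = 0.905). The 7 genes of the 24 h comparison had log2 fold changes between −0.27 (Chaf1a) and 0.21 (Cdc45) there, with FDR from 0.905 to 0.986. For 3 µM against the vehicle, 0 were called (0.05% of all genes), with 1 at an unadjusted p below 0.05, and for the lower doses against the vehicle 0 were called (0.783% of all genes), again with 1. DESeq2 called 0 replication genes in each of these, beside 0%, 0.4% and 1.3% of all genes.

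The gene with the smallest p in both comparisons with the 6 h vehicle was Pold1, the catalytic subunit of polymerase delta. It was at 79.6, 74.2 and 75.2 CPM at 3 µM and at 68.4, 56.0 and 33.0 CPM in the vehicle. The groups did not overlap, and the vehicle libraries spread widely. The log2 fold change was 0.57 (SE 0.20, FDR = 0.458) at 3 µM and 0.42 (SE 0.17, FDR = 0.337) for the lower doses. With the share of reads outside genes in the fit, Pold1 passed the threshold in both, at 0.69 (FDR = 0.0580) and 0.49 (FDR = 0.0714), beside 0.658% and 2.81% of all genes. Dose by dose, 0 genes were called at 0.325, 0.75 and 1.5 µM (0.2%, 0.0749% and 0.0999% of all genes), with 1 at an unadjusted p below 0.05 at each. They were Pold1 at 0.325 µM (0.54, FDR = 0.381), Prim2 at 0.75 µM (0.49, FDR = 0.638) and the origin recognition gene Orc6 at 1.5 µM (−0.66, FDR = 0.577). With the covariate, Pold1 passed at 0.325 µM (0.65, FDR = 0.0427), beside 2.68% of all genes. The summed level of the 47 genes lay between 4795 and 5010 CPM in the means of the 5 groups at 6 h.

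Between 6 h and 24 h, some replication genes were called in every treatment, in both directions. Their share was below that of all genes in the vehicle and under the lower doses, and near it at 3 µM. Ccne1 fell and Pole rose in the vehicle, in the lower doses and at 3 µM alike. In the vehicle, 5 genes rose and 2 fell, 15.2% of 46 genes beside 26.7% of all 12790 genes (12.5% higher and 14.2% lower). Under the lower doses, 7 rose and 6 fell (28.3% beside 51.8%, of which 25.2% higher and 26.6% lower), and at 3 µM 4 rose and 5 fell (19.6% beside 16.6%, of which 8.8% higher and 7.84% lower). The lower doses rest on 9 libraries at each time and the others on 3, so the counts are not comparable in size.

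Ccne1 was at 36.7, 54.4 and 60.5 CPM in the vehicle at 6 h and at 33.1, 28.8 and 21.9 CPM at 24 h. At 3 µM it was at 51.7, 51.1 and 49.0 CPM at 6 h and at 20.6, 27.7 and 27.6 CPM at 24 h. In both pairs every 24 h library was under every 6 h library. The log2 fold changes were −0.86 (SE 0.21, FDR = 0.00275) in the vehicle, −0.67 (SE 0.12, FDR = 2.09e-05) under the lower doses and −1.001 (SE 0.21, FDR = 0.00186) at 3 µM. Pole, the catalytic subunit of polymerase epsilon, was at 60.6, 49.6 and 43.6 CPM in the vehicle at 6 h and at 69.4, 70.3 and 92.2 CPM at 24 h. Its log2 fold changes were 0.60 (SE 0.16, FDR = 0.00646) in the vehicle, 0.38 (SE 0.09, FDR = 0.000713) under the lower doses and 0.50 (SE 0.16, FDR = 0.0356) at 3 µM.

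By role, 3 of the 9 polymerase and primase genes (Pole, Pold1 and Prim2) rose in the vehicle, 33.3% beside 12.5% of all genes called higher. The same 3 rose under the lower doses, beside 25.2% of all genes called higher. There 1 of the 9 fell, Pole2 (−0.72, FDR = 0.0122), an accessory subunit of polymerase epsilon. Of the last 500 exonic bases of Pole2, 49% also belong to Gm49384 on the same strand. Pold1 had log2 fold changes of 0.61 in the vehicle (FDR = 0.0107) and 0.20 under the lower doses (FDR = 0.0896), and Prim2 of 0.52 in both (FDR of 0.0536 and 0.000173). Of the 16 licensing and helicase genes, Gins4 rose in the vehicle (0.41, FDR = 0.0483) and under the lower doses (0.24, FDR = 0.0205), where Mcm6 (0.31, FDR = 0.00694) and Cdt1 (0.18, FDR = 0.0903) rose as well. Mcm7 fell in the vehicle (−0.39, FDR = 0.0624) and under the lower doses (−0.55, FDR = 3.64e-06), and there Mcm3 fell by 0.15 on the log2 scale (FDR = 0.0599). At 3 µM this role had 0 rises and 3 falls, of Cdc45 (−1.14, FDR = 0.0116), Mcm2 (−0.64, FDR = 0.0121) and Gins1 (−0.79, FDR = 0.0976). Of all genes, 8.8% were called higher and 7.84% lower at 3 µM between the times.

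Of the 4 chromatin copying genes, 1 was called in the vehicle, 1 under the lower doses and 2 at 3 µM. The shares of all genes called were 26.7%, 51.8% and 16.6%. Chaf1a fell under the lower doses (−0.23, FDR = 0.0926) and rose at 3 µM (0.68, FDR = 0.0189). Its partner Chaf1b rose at 3 µM (0.48, FDR = 0.0783), and the maintenance methyltransferase gene Dnmt1 rose in the vehicle (0.33, FDR = 0.0763). Lig1 rose at 3 µM (0.65, FDR = 0.00617) and Rpa1 under the lower doses (0.30, FDR = 0.000988). Rrm2, the small subunit of ribonucleotide reductase, fell under the lower doses (−0.32, FDR = 0.0742) and at 3 µM (−0.75, FDR = 0.0614). None of the 6 clamp and clamp loader genes was called in any of the 3 comparisons. With the share of reads outside genes in the fit, Ccne1 was the 1 gene left at 3 µM (−0.83, FDR = 0.0414, beside 5.24% of all genes), and without replicate 2 of 3 µM at 6 h 4 genes were left. Without a filter on low counts, or with the vehicle libraries alone, 3 genes were called in the vehicle.

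**Figure D5:**
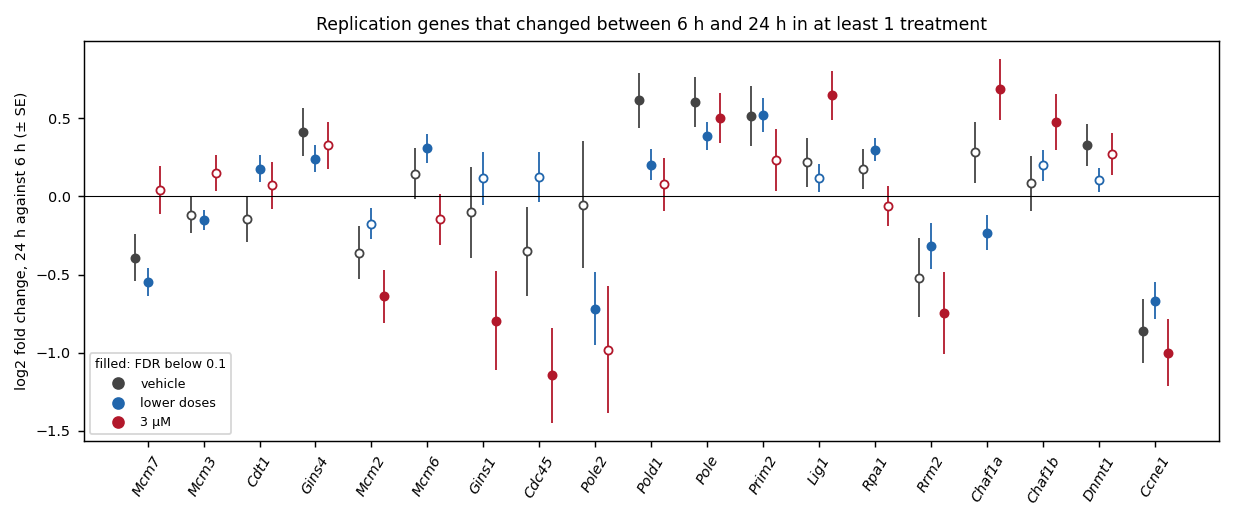
Log2 fold change of 24 h against 6 h (bars are ± 1 SE) in the vehicle, under the 3 lower doses together and at 3 µM, for the genes with an FDR below 0.1 (filled points) in at least 1 of them. Ccne1 lies under 0 and Pole over 0 in all 3, while Chaf1a lies at −0.23 under the lower doses and 0.68 at 3 µM.

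Whether the dose difference itself changed with time was tested as an interaction, the difference of 3 µM from the lower doses at 24 h minus that at 6 h. It passed for 3 of 46 genes, 6.52% beside 2.39% of all genes (1.28% higher and 1.11% lower). Chaf1a had an interaction of 0.92 on the log2 scale (SE 0.23, FDR = 0.0647), Cdc45 of −1.27 (SE 0.34, FDR = 0.0776) and Mcm7 of 0.59 (SE 0.18, FDR = 0.0973). At 6 h, Chaf1a was at 36.4, 28.8 and 52.0 CPM at 3 µM, and at 38.0, 44.6 and 65.0 CPM as the lowest, median and highest of the lower doses, so the groups overlapped, with a log2 fold change of −0.27. Cdc45 was at 19.3, 22.3 and 19.3 CPM at 3 µM at 6 h, within the lower doses of that time (9.86 to 22.8 CPM). Mcm7 was at 422, 446 and 442 CPM at 3 µM and between 375 and 516 CPM at the lower doses at 6 h.

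The 3 calls stood close to the threshold. With the share of reads outside genes in the fit, 0 of 46 genes passed (0.0547% of all genes). The count was also 0 without any of these libraries: replicates 1 and 2 of 3 µM and replicate 2 of 0.75 µM at 6 h, and replicates 1 and 3 of 3 µM, replicate 3 of 0.75 µM and replicate 2 of 0.325 µM at 24 h. It was 1 without replicate 3 of 3 µM, replicate 2 of 1.5 µM or replicate 1 of 0.75 µM at 6 h, or replicate 1 of 0.325 µM at 24 h, and 5 without replicate 2 of 3 µM at 24 h.

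Further lists around replication were counted in the same way. For 3 µM against the lower doses at 24 h, beside 10.5% of all genes, 3 of 43 other replication genes were called (6.98%). Dbf4, the partner of the Cdc7 kinase that fires origins (0.42, FDR = 0.0414), and Pclaf, which binds Pcna (0.32, FDR = 0.0640), were higher, and Rnaseh2c, a subunit of RNase H2 (−0.37, FDR = 0.0740), was lower. Of 27 regulators of the G1/S border, 6 were called (22.2%). Of these 4 were higher, with the smallest p for the cyclin D gene Ccnd2 (0.36, FDR = 0.0341), and 2 were lower, the Cdk inhibitor genes Cdkn2d (−0.58, FDR = 0.0208) and Cdkn1b (−0.53, FDR = 0.0230). Of 18 mitosis genes, 3 were lower (16.7%): Cdk1 (−0.92, FDR = 0.00518), Ccnb1 (−0.41, FDR = 0.0364) and Cdc20 (−0.58, FDR = 0.0378). The medians of these lists were 0.08, −0.03 and −0.13 on the log2 scale, and none of their genes was called against the 24 h vehicle, at 3 µM or at the lower doses. At unadjusted p below 0.05, edgeR counted 4, 1 and 4 genes at 3 µM, with no share of all genes given beside them. The percentage of reads outside genes was also fitted for 3 µM against the lower doses at 24 h. In that fit 30 of all 12118 genes were called (0.248%), 28 higher and 2 lower. At most 2 of the genes named above as lower in this comparison can be among them. The calls within these lists are not given for that fit.

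At 6 h, the lower doses against the vehicle called 2 genes of these lists, beside 0.783% of all genes. Cdkn1a, the p53 target that codes for the Cdk inhibitor p21, was lower (−0.48, SE 0.10, FDR = 0.0294), and Rnaseh2c was higher (0.58, SE 0.15, FDR = 0.0931). At 0.75 µM alone, the mitotic motor gene Cenpe was higher (0.73, SE 0.15, FDR = 0.0903), beside 0.0749% of all genes. Cenpe was not called at the lower doses together (0.37, FDR = 0.260), at 0.325 µM (0.33, FDR = 0.551) or at 1.5 µM. At 3 µM against the vehicle, Cdkn1a had a nearly equal log2 fold change of −0.48 (SE 0.13, FDR = 0.226). With time, 10 of 27 G1/S regulators were called in the vehicle (37.0%, beside 26.7% of all genes), with Ccnd1 at −1.45 (FDR = 5.78e-06) and Cdkn1b at 1.27 (FDR = 1.08e-05). At 3 µM, 5 of 27 were called (18.5%, beside 16.6% of all genes). Under the lower doses 17 of 27 were called, beside 51.8% of all genes. There Ccnd1 was at −1.28 (FDR = 1.2e-10) and Cdkn1b at 1.68 (FDR = 6.58e-15). Of 18 mitosis genes, 6 were called in the vehicle, 10 under the lower doses and 1 at 3 µM. Of the other replication genes, 11, 21 and 5 were called in the same order, beside the same shares of all genes.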

How the data were processed

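The 30 libraries were made with the QuantSeq 3′ mRNA-Seq kit (FWD), and the authors mapped reads with STAR 2.7.5c to GRCm39 and counted them with HTSeq 1.99.2 on Ensembl 109 genes. The deposited values are raw counts per gene, 1839621 to 4420675 on genes per library. The rows of reads outside genes (20.0% of uniquely mapped reads) and ambiguous reads (4.92%) stayed out of library sizes.

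Counts were fitted with edgeR 4.0.16 in R 4.3.3 (filterByExpr on groups, TMM, glmQLFTest), as 15 libraries per time (12118 genes at 24 h, 12012 at 6 h) and as all 30 for comparisons between times (12790 genes). The FDR is the Benjamini-Hochberg value over all tested genes, and calls have an FDR below 0.1. Counts at an unadjusted p below 0.05 have no share of all genes beside them and are not read as an excess. Intervals are 95% intervals of the fit. The steps were tested on simulated data. The members, lists and comparisons were chosen with earlier results of these data known. For each role the gene with the smallest p in the dose comparison at 24 h, every called gene, and the highest and lowest genes were named, and up to 3 genes by p of each other list. Alternatives were DESeq2 1.42.0, RLE scaling, no filter or at least 10 counts in every library, only the groups compared, a covariate for the share of reads outside genes, and each library left out. Positions and overlaps came from GENCODE M21 on GRCm38 and promoters from RefSeq on GRCm38.p6, older assemblies than that of the counts. Symbols matched for all 47 genes. Pseudogene copies (of Pcna and Tyms among others) can take reads of their parent genes.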

Additional observations from a re-analysis of the deposited data

Results flagged for a closer look

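The difference of 3 µM from the lower doses changed between 6 h and 24 h for 3 replication genes, by a test of the interaction (edgeR quasi-likelihood test, FDR below 0.1). The change was 0.92 on the log2 scale for Chaf1a (FDR = 0.0647), −1.27 for Cdc45 (FDR = 0.0776) and 0.59 for Mcm7 (FDR = 0.0973). With a covariate for the share of reads outside genes the values were 0.54, −0.79 and 0.40, and none passed the threshold. The part of that share in the 3 results was not tested further.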

How the results depend on the processing

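The 7 calls of 3 µM against the lower doses at 24 h were also 7 with DESeq2, RLE scaling, either other filter and only the groups compared. With a covariate for the share of reads outside genes, 0 were called there, 0 in the interaction (3 in the main analysis), 1 at 3 µM between times (9), and 1 (from 0) at 6 h for 3 µM against the vehicle, for the lower doses against the vehicle and for any lower dose alone. Without a filter, 3 genes were called in the vehicle between times and 5 in the interaction, and with only the groups compared 3 in the vehicle. The cause was not tested. With each library left out in turn, the counts ran from 2 to 7 (3 µM against the lower doses at 24 h), 5 to 8 (vehicle between times), 10 to 15 (lower doses), 4 to 10 (3 µM) and 0 to 5 (interaction), while the comparisons with 0 calls stayed at 0. None of the 39 calls of single genes changed sign under an alternative that tested them (Pole2 under the lower doses was not tested with at least 10 counts in every library), and 22 of them missed the threshold with the covariate, 10 without a filter, 5 with only the groups compared, and 1 each with DESeq2 and RLE scaling. At this depth, Rfc4, Rpa3, Pole2 and Gins2 had too few reads for narrow intervals. Of their last 500 exonic bases, Gins2 overlaps Gse1 over 100% and Rfc4 overlaps Eif4a2 over 38.8%, both on the opposite strand. The part of such overlaps in the low counts was not tested. No paired analysis was possible because the labels number no replicates: the numbers used here follow the order of the libraries within a group and pair nothing.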
